A study of Mus musculus with 2 samples.

Results

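The genes described here encode the nuclear subunits of the respiratory chain and of ATP synthase. They were taken by symbol from the platform annotation: Ndufa, Ndufb, Ndufc, Ndufs and Ndufv genes for complex I, without the Ndufaf assembly factors, Uqcr genes for complex III, Cox4 to Cox8 genes for complex IV and Atp5 genes for complex V. Only probe sets assigned to 1 such symbol were used, which gave 75 genes of the 12393 genes on the array, 34 in complex I, 8 in complex III, 16 in complex IV and 17 in complex V. Of 84 protein-coding genes in the RefSeq table of assembly GRCm38.p6 whose symbols fit the rule, 75 were covered. The other 9 are not analysed here as members. LM8 is a mouse osteosarcoma line, and expression was compared between 2 of its stable transfectants on 1 Affymetrix array each. The hPHD4 clone carried human PHD4 cDNA in pcDNA3.1 and the control clone the vector without insert, both were under G418 at 0.5 mg/ml, and 5 µg of total RNA was labelled. Each group was a single clone, so a difference between the groups cannot be told apart from one between any 2 clones of the line.

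The respiratory chain sits in the inner mitochondrial membrane. Complex I takes electrons from NADH, complex III passes them from ubiquinol to cytochrome c, and complex IV delivers them to oxygen. These 3 complexes pump protons as they work, and complex V, the ATP synthase, lets the protons back through its membrane sector to drive the synthesis of ATP. Most subunits are encoded in the nucleus and a few in mitochondrial DNA, so each complex is assembled from products of both genomes. Several subunits of complex IV exist as alternative isoforms, of which one is found in most tissues and the other mainly in muscle, testis or lung. PHD4 belongs to the family of oxygen-dependent prolyl hydroxylases that act on hypoxia-inducible factor (HIF), and HIF is known to alter isoform use in complex IV and the entry of pyruvate into mitochondria.

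Signals were log2 values per probe set. Probe sets were taken as measured if they exceeded a floor, the 40th percentile of the array, in both clones; the floors were log2 signals of 6.34 (hPHD4) and 6.08 (control). Each gene is given by the log2 ratio of the hPHD4 over the control clone, averaged over its measured probe sets. By this rule 7452 genes were measured in all, and 71 of the 75 members, on 129 of their 143 probe sets. Since each clone had 1 array, nothing could be tested against replicate error and no p-value is given. As a technical yardstick, the ratios of probe sets of the same gene had a pooled SD of 0.22 among members (96 probe sets of 38 genes) and of 0.28 among the brightest tercile of all measured genes by mean signal (2532 probe sets of 971 genes), which leaves out differences between cultures, clones and hybridisations. No probe set was assigned to P4htm, the mouse PHD4 gene, so the transgene was not followed. The osteoblast and mesenchymal markers of the labelled cell line were measured for 9 of 12 genes, and the clones differed in them: 4 ratios were above 0 and 5 below, from −2.09 for S100a4 (log2 signals of 10.43 in the hPHD4 and 12.52 in the control clone) to 1.09 for Ibsp (8.04 and 6.95). The osteoblast factor Sp7 was at 0.23 and Col1a2 at −0.43. Of other cell types, 3 of 4 chondrocyte markers were measured (Col9a1 1.16, Col2a1 0.57, Sox9 −0.29), 2 of 6 leukocyte markers near the floor (Cd68 0.48, Lyz2 0.44), 1 of 4 endothelial markers (Kdr 0.069) and none of the 6 epithelial ones. Krt8, an epithelial marker, passed the floor only in the hPHD4 clone, with log2 signals of 7.44 there and 5.89 in the control clone. Of the leukocyte markers, Cd3e passed it only in the hPHD4 clone (6.47 and 4.75) and Cd14 only in the control clone (6.27 and 6.90). The part of these marker differences in the members' ratios was not tested.

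The respiratory chain and ATP synthase genes lay close together in the 2 clones, with small differences in both directions. The median log2 ratio over the 71 measured members was −0.037, beside 0.031 over all 7452 measured genes and −0.027 over the 2484 genes of the brightest tercile, to which 65 members belonged. Of the members 34 lay above 0 and 37 below, or 47.9% above, where 53.6% of all measured genes and 46.1% of the brightest tercile lay above 0. The lower and upper quartiles were −0.22 and 0.15. Past 1.5-fold on the higher side lay only Cox4i2, 1 of 71 members, where 8.94% of all measured genes and 3.38% of the brightest tercile lay. On the lower side it was only Cox6a2, again 1 of 71, against 5.22% of all measured genes and 4.43% of the brightest tercile. At a smaller threshold, a log2 ratio of 0.322 in size, 8 members were higher (11.3%), against 22.6% of all measured genes and 13.3% of the brightest tercile. A further 9 were lower by that much (12.7%), against 15.9% and 16.4%. The SD between the member means was 0.29, compared with 0.43 over all measured genes and 0.36 over the brightest tercile. Of the 71 members, 43 lay within the 0.22 by which probe sets of 1 gene disagreed.

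**Figure D1:**
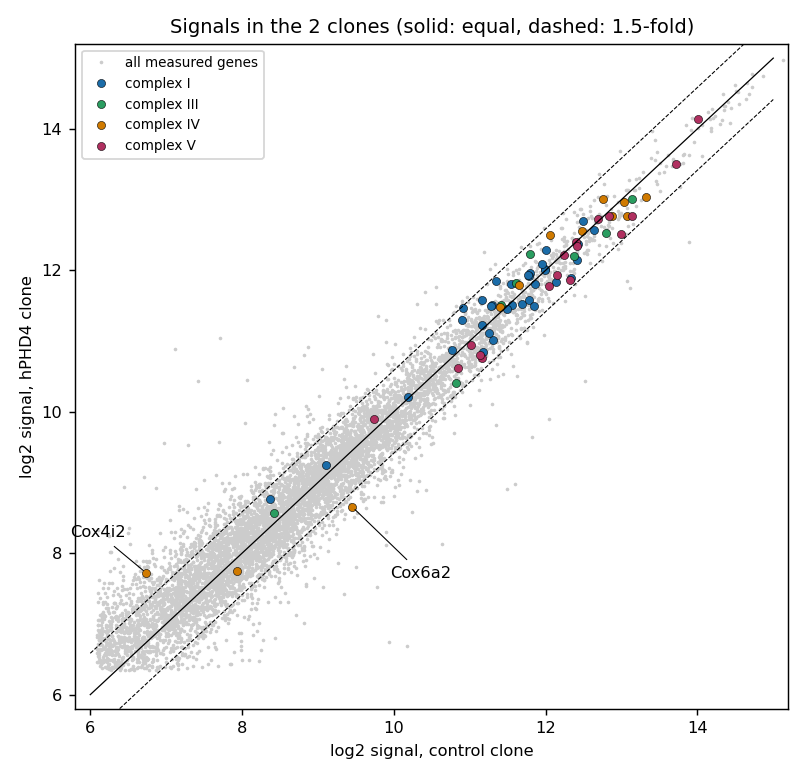
Log2 signal in the control clone (x axis) and the hPHD4 clone (y axis) for all measured genes (grey) and the measured members, coloured by complex. The solid line marks equal signals and the dashed lines 1.5-fold; Cox4i2 lies above and Cox6a2 below the dashed lines, and the other members lie between them.

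Complex I had the widest set of members and a median near that of the array. All 34 of its genes were measured, with a median log2 ratio of 0.042, 20 above 0 and 14 below. The median was 0.031 over all measured genes and −0.027 over the brightest tercile. Past the smaller threshold were 5 of 34 genes on the higher side and 2 on the lower, and none reached 1.5-fold. The shares past it were 22.6% (higher) and 15.9% (lower) of all measured genes, and 13.3% and 16.4% of the brightest tercile. The 6 core subunits measured here, which are conserved from bacteria, had a median of 0.13, and the 28 accessory subunits one of 0.023. This division, like the subunit groups given for the other complexes, was made with the values known.

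Among the core subunits, Ndufs1, the largest subunit of the complex and a carrier of iron-sulfur clusters, had log2 signals of 11.84 (hPHD4 clone) and 11.35 (control clone), the order used throughout, and a ratio of 0.49 (1.41-fold higher) on its only probe set. Ndufv1, which binds NADH and the flavin that accepts its electrons, had mean signals of 11.29 and 10.90 and a ratio of 0.39. All 3 of its probe sets were higher in the hPHD4 clone, at 0.25, 0.42 and 0.50. Its partner Ndufv2, an iron-sulfur protein of the same NADH-oxidising tip, lay on the other side, with mean signals of 11.50 and 11.85 and a ratio of −0.35. The 3 probe sets of Ndufv2 disagreed, at −0.65, −0.49 and 0.096, and the brightest was the one above 0. Ndufs7 and Ndufs8, iron-sulfur subunits on the path to ubiquinone, had ratios of 0.16 and 0.10, the latter over 6 probe sets that ranged from −0.054 to 0.33. Ndufs3 lay at −0.037. The means of the core subunits thus fell on both sides of 0, while read from its brightest probe set Ndufv2 was above 0 with Ndufs1 and Ndufv1.

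The accessory subunits of complex I reached slightly farther at their extremes, over 28 genes against 6. The SD between genes was 0.24 among them and 0.30 among the core subunits. Ndufb3, a small subunit of the membrane arm, had log2 signals of 11.46 and 10.92 and the highest ratio of the complex, 0.54 (1.46-fold higher). Ndufa6, of the LYR-motif protein family, followed with signals of 11.58 and 11.17 and a ratio of 0.41, and Ndufb1 with 8.77 and 8.37 and a ratio of 0.40. Each of these 3 genes rested on 1 probe set. At the lower end, Ndufa7, an accessory subunit of the matrix arm, had mean signals of 11.88 and 12.34 and a ratio of −0.45 (1.37-fold lower). All 5 of its probe sets were lower in the hPHD4 clone, between −0.57 and −0.36, with an SD of 0.079. Ndufb7 was at −0.32, just short of the smaller threshold, with its 2 probe sets at −0.34 and −0.30. Ndufa7 and Ndufb7 were therefore among the lower members on each probe set, whereas Ndufs4 and Ndufa12 depended on which one was read. Ndufs4, an accessory subunit at the NADH-oxidising tip, had 2 dimmer probe sets at 0.38 and 0.36 and its brightest at −0.32, for a mean of 0.14. Ndufa12 had probe sets at 0.40, −0.087 and −0.24 and a mean of 0.025; the first of these was the brightest. Ndufa4, classed with complex I by its name although its protein is now known as a subunit of complex IV, was at 0.0087, with linear signals of 4106 and 4081. The remaining accessory subunits lay between −0.30 (Ndufs5) and 0.29 (Ndufa8). Probe sets assigned to several symbols were left out of these values; those of the Ndufb4 group read −0.46 and −0.33, and the one for Ndufa11 and Ndufa11b 0.32.

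**Figure D2:**
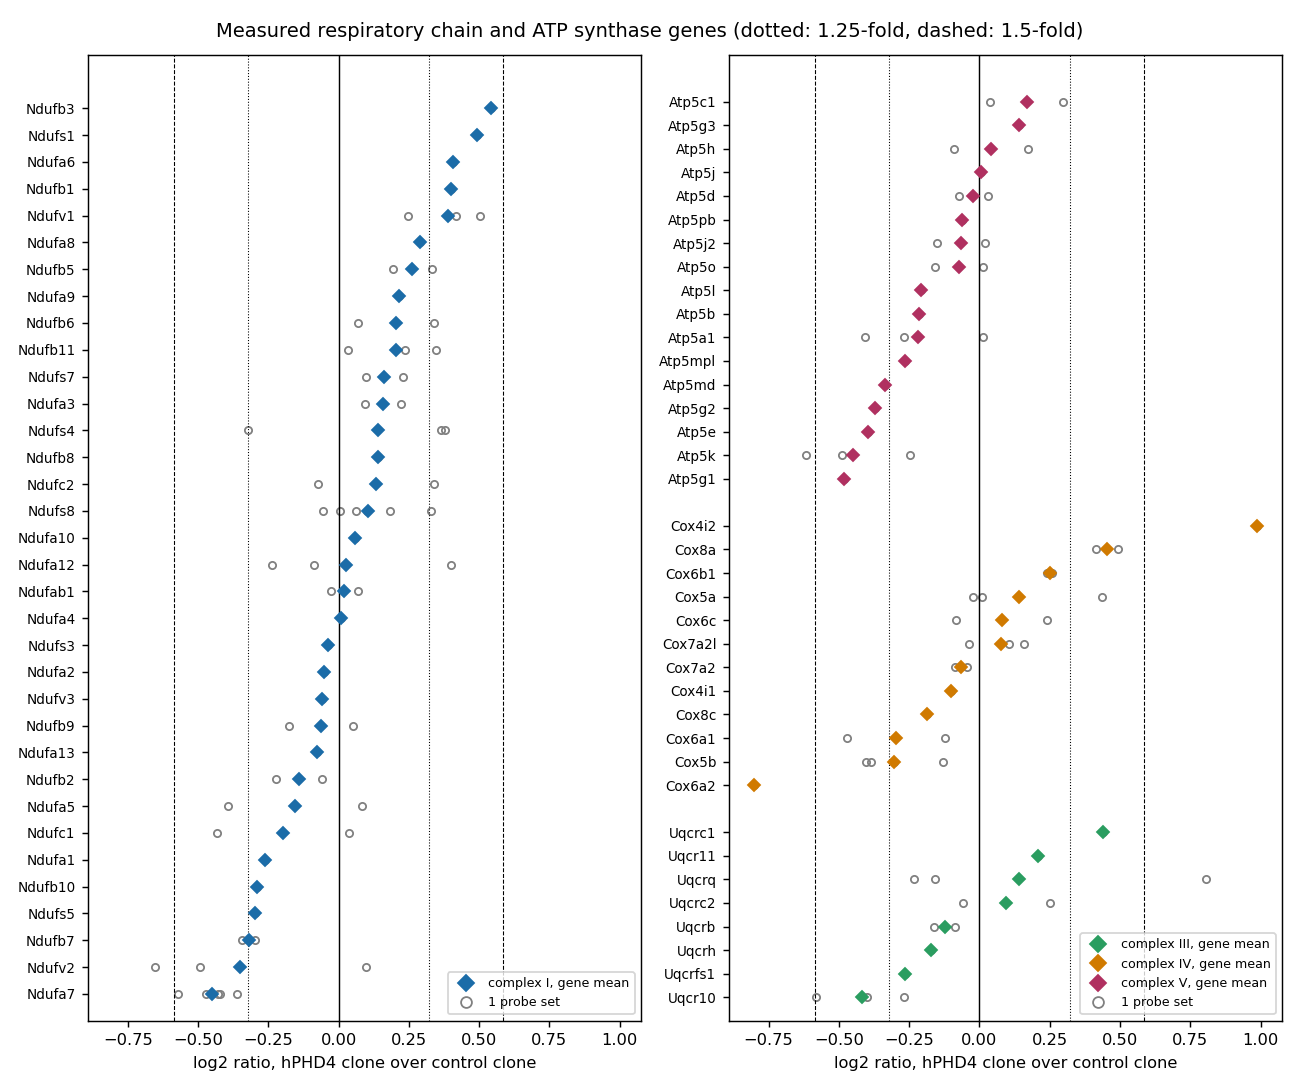
Log2 ratio of each measured member, hPHD4 clone over control clone (x axis), with genes in order of ratio within each complex. Diamonds are gene means and open circles single measured probe sets, which lie at the diamond for genes with only 1. Dotted lines mark log2 ratios of 0.322 in size. Cox4i2 at 0.99 and Cox6a2 at −0.80 lie beyond the dashed 1.5-fold lines, and 13 of the 17 complex V genes lie left of 0.

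Complex III was balanced. Its 8 genes were all measured, with a median of −0.014, 4 above 0 and 4 below. Uqcrc1, a core protein of the complex facing the matrix, had log2 signals of 12.24 and 11.80 and a ratio of 0.44 (1.36-fold higher) on 1 probe set. The other core protein gene, Uqcrc2, was at 0.096 with probe sets at 0.25 and −0.059. Uqcrfs1, encoding the Rieske iron-sulfur protein, lay at −0.27, with signals of 12.52 and 12.79. Among the small subunits, Uqcr10 had mean signals of 10.40 and 10.82 and a ratio of −0.42 (1.34-fold lower), with all 3 probe sets below 0, from −0.58 to −0.27. Uqcrh, the hinge protein, was at −0.17 and Uqcrb at −0.12, while Uqcr11 was at 0.21. Uqcrq, the ubiquinone-binding subunit, had a mean of 0.14 that rested on a dim probe set at 0.81; its brightest probe set read −0.23 and another −0.16. Read from its brightest probe set per gene, complex III had a median of −0.17.

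Complex IV held both members past 1.5-fold, and both encode tissue isoforms on a single dim to moderate probe set. Of its 16 genes, 12 were measured, with a median of 0.0054, 6 above 0 and 6 below. The 9 isoforms and subunits found in most tissues had a median of 0.076 and lay between −0.30 and 0.45; the median was −0.044 with the brightest probe set of each gene and −0.0058 without _x_at and _s_at probe sets. The regulatory subunit IV has 2 isoforms on the array. Cox4i1, the common one, had log2 signals of 12.77 and 12.87 in the hPHD4 and control clones and a ratio of −0.10. Cox4i2, the isoform known from lung and from cells short of oxygen, had signals of 7.72 and 6.74, linear 211 and 106.6, and a ratio of 0.99 (1.98-fold higher). Its control signal was not far above the floor, and a floor at the 60th percentile left it unmeasured. For subunit VIa, the common Cox6a1 was at −0.30, with probe sets at −0.12 and −0.47. The heart and skeletal muscle isoform Cox6a2 had signals of 8.65 and 9.45, linear 402 and 701, and a ratio of −0.80 (1.74-fold lower).

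The other isoform genes did not add a pattern to these. Cox6b1 was at 0.25, with its 2 probe sets at 0.26 and 0.24, while the testis isoform Cox6b2 was below the floor in both clones, at log2 signals of 5.65 and 3.60. Cox7a2 was at −0.066 and Cox7a2l, which links complexes III and IV into supercomplexes, at 0.076. The muscle isoform Cox7a1 was below the floor in both, at 5.81 and 5.29. Cox8a had mean signals of 12.51 and 12.05 and a ratio of 0.45 (1.37-fold higher), on measured probe sets at 0.49 and 0.41. The muscle isoform Cox8b was below the floor in both, and the testis isoform Cox8c was at −0.19, with signals of 7.75 and 7.93. Of the subunits with 1 gene each, Cox5a was at 0.14, Cox5b at −0.30 with 4 measured probe sets all below 0, and Cox6c at 0.079. With a floor at the 20th percentile, which let in a dim probe set at 1.18, Cox5b was at −0.0085. Cox7c, though a subunit of complex IV in most tissues, was not measured: neither of its 2 probe sets exceeded the floor in both clones. Of 9 muscle marker genes, which bear on the muscle isoforms, only Des was measured, at 6.87 and 6.45, and Myh7, at 6.97 and 5.70, passed the signal floor only in the hPHD4 clone. Among the others, Acta1, Ckm, Myod1 and Myog were below the floor in both clones.

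Complex V was the group with most of its members on one side. All 17 genes were measured, with a median log2 ratio of −0.21, 13 below 0 and 4 above, where 53.6% of all measured genes were above 0 and 46.1% of the brightest tercile, to which all 17 belonged. None passed the smaller threshold on the higher side, and 5 of 17 did on the lower side, against 15.9% of all measured genes and 16.4% of the brightest tercile; none reached 1.5-fold. The difference was small on any gene, and the SD between probe sets of one gene within complex V was 0.16. The median stayed below that of the brightest tercile under each of the 8 processing alternatives, by between 0.090 and 0.20, and the median itself was −0.11 after quantile normalization and −0.13 after loess correction, with 6 genes above 0 in both.

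The catalytic head of ATP synthase, F1, had a median of −0.22 over 5 genes, which was −0.11 after quantile normalization and −0.074 with the brightest probe set of each gene. Atp5b, the catalytic beta subunit, had log2 signals of 13.51 and 13.72 and a ratio of −0.22, and Atp5a1, the alpha subunit, was at −0.22 with probe sets from −0.41 to 0.013, the last being the brightest. Atp5e, the epsilon subunit of the central stalk, had signals of 10.76 and 11.16 and a ratio of −0.40 (1.32-fold lower). Atp5d, the delta subunit, was at −0.021, and Atp5c1, the gamma subunit that forms the rotating shaft, was at 0.17. The brighter probe set of Atp5c1 read 0.039 and the dim one 0.30. Subunit c, which forms the rotating ring in the membrane, is made from 3 genes that are known to encode the same mature protein with different targeting sequences. Atp5g1 had signals of 12.52 and 13.00 and the lowest ratio of the complex, −0.48 (1.40-fold lower). Atp5g2 had 12.76 and 13.13 and a ratio of −0.37, while Atp5g3 had 14.14 and 14.00 and a ratio of 0.14. The c ring genes thus lay on both sides of 0, each on 1 measured probe set.

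The 5 genes of small subunits in the membrane sector were all below 0 in the values reported here, and 4 of 5 were below 0 after quantile normalization, after loess correction, without _x_at and _s_at probe sets, or with chromosome medians subtracted. Atp5k, the e subunit, had mean signals of 11.86 and 12.31 and a ratio of −0.45 (1.37-fold lower), with its 3 probe sets at −0.62, −0.49 and −0.25. Atp5md was at −0.34, Atp5mpl at −0.26, Atp5l, the g subunit, at −0.21 and Atp5j2, the f subunit, at −0.066. The peripheral stalk, which holds the head still while the ring turns, stayed nearest to 0. Atp5o was at −0.071, Atp5pb at −0.062, Atp5j at 0.0046 and Atp5h at 0.040.

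**Figure D3:**
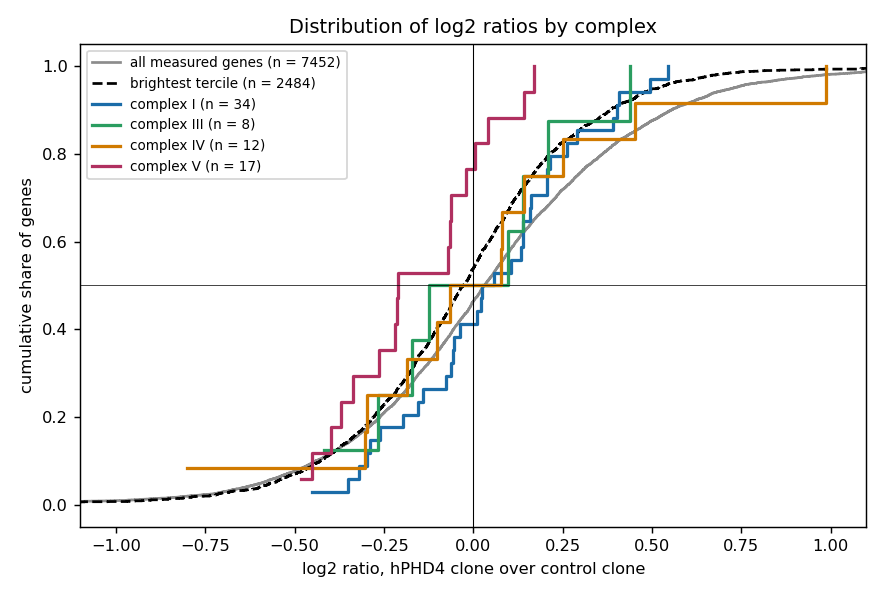
Cumulative share of genes (y axis) by log2 ratio, hPHD4 clone over control clone (x axis), for all measured genes, the brightest tercile and the measured genes of each complex. The curve of complex V lies to the left over most of its range, with a median of −0.21, and the curves of complexes I, III and IV, with medians of 0.042, −0.014 and 0.0054, lie nearer to that of the brightest tercile.

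Agreement between probe sets set how far single genes could be read. Of the 71 measured members, 33 rested on 1 probe set and 38 on 2 or more. In 19 of these 38 all probe sets had the same sign, 9 of them higher and 10 lower in the hPHD4 clone, and in the other 19 the signs were mixed. By complex, the genes with mixed signs were 9 of 18 in complex I, 2 of 4 in complex III, 3 of 8 in complex IV and 5 of 8 in complex V. Among those 38, every measured probe set passed the smaller threshold in the same direction in only 2, Cox8a (higher) and Ndufa7 (lower). Probe sets whose identifiers end in _x_at or _s_at, which can pick up related sequences, made up 38 of the 129 measured probe sets.

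The members are spread over 19 chromosomes, and their ratios correlated weakly with those of the other genes on the same chromosome. On chromosome 17, 5 members had a median of −0.29 (Ndufa7, Ndufb10, Ndufv2, Ndufv3 and Cox7a2l), beside −0.17 for the 368 other measured genes there. On chromosome 5 the values were −0.30 for Atp5j2, Atp5k and Cox6a1 and −0.18 for 488 other genes. On chromosome 1 they were 0.28 for 4 members, Ndufs1 and Ndufb3 among them, and 0.16 for 416 other genes. On chromosome 19 they were 0.14 for 5 members and 0.31 for 276 others; Cox8a and Ndufv1 lie there. The 2 medians had the same sign on 11 of the 19 chromosomes. Across the 71 members, the ratio correlated with the median of the other genes on the chromosome (Pearson's r 0.31, Spearman's rho 0.32). Genes of 1 chromosome share that median, and all share the same 2 arrays. With chromosome medians subtracted, the core subunits of complex I had a median of −0.033 instead of 0.13 and Cox8a a ratio of 0.15 instead of 0.45, while complex V stayed at −0.17. The part of the chromosome in these ratios was not tested.

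The promoters of Ndufa7 and Cox8a are shown, the members with 2 or more measured probe sets that all passed the smaller threshold. With them are those of Atp5k and Cox6a1, both lower in the hPHD4 clone. Both of the latter carry the core of the motif bound by NRF1, a transcription factor known to act on respiratory genes. Each sequence is the 250 bases before the transcription start from RefSeq, assembly GRCm38.p6, 5′ to 3′ on the strand of the gene, with matches to the motifs named in the next paragraph in capitals where they lie wholly within it. An ETS match of Cox8a begins 5 bases before the start and runs across it, so it is not in capitals, and another lies after the start. Ndufa7 lies at chr17:33824395-33824644 on the plus strand (the downstream one of 2 listed starts). Cox8a lies at chr19:7217617-7217866, Atp5k at chr5:108434400-108434649 and Cox6a1 at chr5:115348959-115349208, all on the minus strand.
Ndufa7: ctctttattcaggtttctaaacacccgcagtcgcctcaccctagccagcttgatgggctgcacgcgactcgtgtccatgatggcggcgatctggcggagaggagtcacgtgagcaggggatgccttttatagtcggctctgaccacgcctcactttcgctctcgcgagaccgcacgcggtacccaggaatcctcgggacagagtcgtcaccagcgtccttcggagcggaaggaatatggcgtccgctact
Cox8a: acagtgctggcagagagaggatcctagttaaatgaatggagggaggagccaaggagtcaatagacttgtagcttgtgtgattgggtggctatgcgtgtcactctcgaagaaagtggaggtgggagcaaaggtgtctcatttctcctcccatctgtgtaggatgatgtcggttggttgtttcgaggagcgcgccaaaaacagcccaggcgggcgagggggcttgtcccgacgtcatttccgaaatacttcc
Atp5k: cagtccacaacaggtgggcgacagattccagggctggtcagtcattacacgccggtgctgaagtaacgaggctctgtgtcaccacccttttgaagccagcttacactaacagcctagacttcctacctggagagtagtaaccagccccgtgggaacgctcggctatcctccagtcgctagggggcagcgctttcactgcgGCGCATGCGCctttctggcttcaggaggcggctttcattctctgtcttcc
Cox6a1: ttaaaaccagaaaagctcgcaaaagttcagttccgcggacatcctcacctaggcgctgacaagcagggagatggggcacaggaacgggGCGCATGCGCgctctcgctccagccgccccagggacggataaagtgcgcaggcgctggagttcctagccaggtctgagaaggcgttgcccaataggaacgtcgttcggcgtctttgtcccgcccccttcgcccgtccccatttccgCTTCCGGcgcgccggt

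Promoter windows of 300 bases, from 250 before to 50 after the start, were listed for 62 of the 75 members (67 windows). The NRF1 core GCGCATGC, on either strand, was found in 11.9% of the member windows, in 5.72% of the 7931 windows of all measured genes and in 2.71% of all 32851 windows. The 8 members that held it lay 4 above and 4 below 0: Uqcrc1, Ndufa6, Ndufa8 and Uqcr11 were above, and Atp5k, Atp5g2, Cox6a1 and Atp5l below. The YY1 core AAGATGGC was found in 13.4% of member windows, against 4.83% of those of measured genes and 2.75% of all. In 7 of its 9 matches it lay on the strand of the gene 23 to 39 bases after the start, beyond the stretches printed here. The ETS core CCGGAAG was found in 22.4%, 19.2% and 8.86%, and the TATA box TATAAA, on the strand of the gene alone, in 4.48%, 4.16% and 8.32%. The NRF1 core overlaps itself read on the other strand, so a pair of matches 2 bases apart can lie at one place, as in Atp5k and Cox6a1. A match is a description of the letters in the window and not a measured binding site.

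The lists of genes that work with the respiratory chain had medians between −0.17 and 0.0032, leaving aside the HIF-linked genes and mitochondrial DNA. Their counts are to be read beside the array, where 53.6% of measured genes and 46.1% of the brightest tercile had ratios above 0. Array shares past 1.5-fold were 8.94% (higher side) and 5.22% (lower side), and those of the tercile 3.38% and 4.43%. Of 11 genes of complex II and electron carriers, all measured, the median was 0.0032, with 1 gene past 1.5-fold on each side. These were Gpd2, the mitochondrial glycerol phosphate dehydrogenase, at 0.75 and Sdhd, a membrane anchor of succinate dehydrogenase, at −0.60. The 2 probe sets of Sdhd read −1.01 and −0.19. The 32 measured assembly factors had a median of −0.027, with 14 above 0 and 18 below, 1 at least 1.5-fold higher (Uqcc3, 0.61) and 2 lower. The lower ones were Sco2, a copper chaperone of complex IV, at −0.80 and Ttc19, which acts on complex III, at −0.71. All 74 mitochondrial ribosomal protein genes were measured, with a median of −0.096, 29 above 0 and 45 below. Among them Mrpl16 at 0.96 and Mrps6 at 0.64 were at least 1.5-fold higher and Mrpl33 at −0.61 at least 1.5-fold lower. Regulators of mitochondrial biogenesis had a median of −0.17 over 13 measured genes, with 4 above 0 and 9 below. Pprc1, a coactivator related to PGC-1, was at −0.90 and Tfb1m, a methyltransferase of mitochondrial ribosomal RNA, at −0.63, while Tfb2m was highest at 0.38. Nrf1 itself was at −0.24 over 3 probe sets, Gabpa, an ETS factor, at −0.37 and Yy1 at 0.23 over 4 probe sets from −0.66 to 0.75. Ppargc1a was not measured. Carriers and channels lay between −0.17 for Slc25a5, the main adenine nucleotide carrier of growing cells, and 0.39 for Vdac3, with a median of −0.0031 over 6 genes.

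A ratio larger in size than that of any member belonged to a gene of the other genome. ND5, a proton-pumping subunit of complex I encoded in mitochondrial DNA and not a member under the symbol rule, was the 1 gene of that kind with a probe set of its own. It had log2 signals of 11.85 and 13.08 and a ratio of −1.22, on 1 probe set. No other transcript of mitochondrial DNA was there to set beside it.

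The HIF-linked genes, which include HIF subunits and Vegfa as well as genes of mitochondria, were Cox4i2 and 8 other measured genes. Their median was 0.17, with 7 of 9 above 0 (53.6% of all measured genes were). Beyond 1.5-fold on the higher side were 2 of the 9, Cox4i2 and Epas1, the HIF-2 alpha gene, at 1.14. The array-wide share on that side was 8.94%, and Cox4i2 had already been counted among the members. Pdk1, the kinase that limits pyruvate entry, was at 0.49 and Lonp1, the protease that degrades the Cox4i1 protein in low oxygen, at 0.34. Bnip3 was at 0.10, Higd1a at 0.14 and Iscu at −0.060. Hif1a was at 0.17 over 3 probe sets from −0.18 to 0.52, and Vegfa at −0.067 over 2 from −0.19 to 0.058. Epas1, like Cox4i2, was close to the floor in the control clone, at log2 signals of 7.31 and 6.17.

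**Figure D4:**
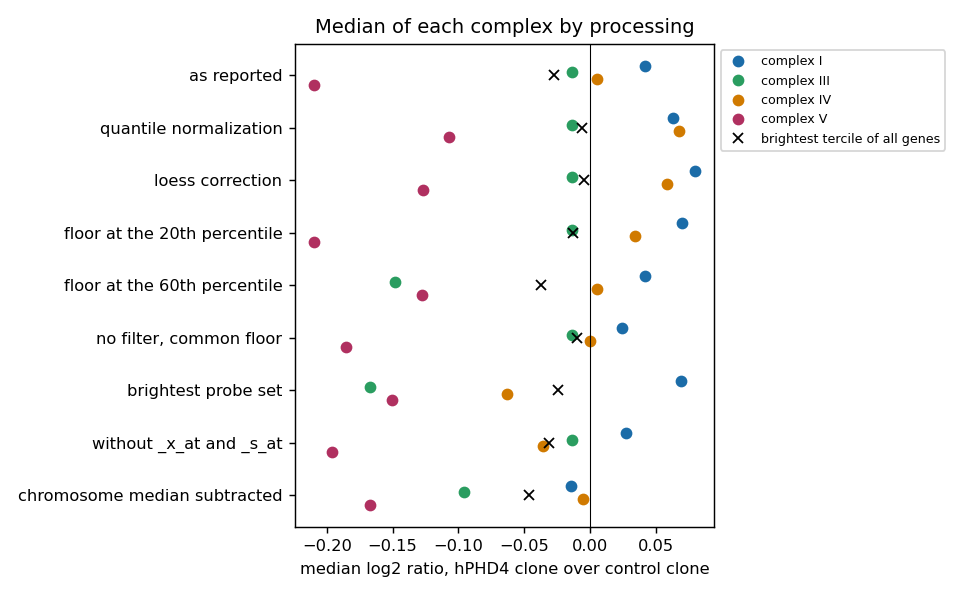
Median log2 ratio (x axis) of the measured genes of each complex under the processing used here and 8 alternatives (y axis), with the median of the brightest tercile of all measured genes as crosses. Complex V lies left of the cross in every row, between −0.21 and −0.11, while complexes III and IV lie on either side of it.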

How the data were processed

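The data were 1 array for each of 2 clones. The authors deposited log2 signals for each probe set, computed with MAS5 per the submitters' processing notes. Its version, not given in the sources used here, is unknown, as are its settings. The log base and a common scaling of both arrays were read from the values. With no detection calls in use, a floor at the 40th percentile of each array was applied, and no further scaling was applied. Gene symbols came from the platform annotation and chromosomes from the RefSeq table by gene number, matched for 75 of 75 members. Members, lists and subunit groups were chosen with earlier results of these data known. The genes named were those at least 1.5-fold apart, the 3 highest and 3 lowest of each complex, all isoform genes, genes whose probe sets differed by over 1 in log2 ratio or by over 0.5 with opposite signs, the extremes of each other list, and P4htm; any other gene was named after its values were seen. No gene qualified as bright on 1 array and below the floor on the other. Counts past either fold threshold are descriptions. The number of arrays limits the precision. Alternatives were the scaling (quantile, or loess with a span of 0.3), the floor (20th or 60th percentile, or none), the choice of probe sets and the chromosome median. The steps were tested on simulated data. Python 3.11.15, pandas 2.3.3 and statsmodels 0.14.6 were used.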

Additional observations from a re-analysis of the deposited data

How the results depend on the processing

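No paired analysis was possible because each clone had 1 array. A median was counted as moved when it shifted by more than the SD between probe sets of one gene divided by the square root of the number of genes. The median of all members (−0.037) was 0.018 quantile normalized, 0.0068 loess corrected, 0 with dim probe sets kept at a common floor and −0.075 with chromosome medians subtracted, so its sign is not settled. Complex I (0.042) was 0.080 after loess correction and −0.014 with chromosome medians subtracted. Complex III (−0.014) was −0.15 at the 60th percentile floor, −0.17 with the brightest probe set and −0.096 with chromosome medians subtracted. Complex IV (0.0054) was −0.063 with the brightest probe set. Complex V (−0.21) was −0.11 quantile normalized, −0.13 loess corrected, −0.13 at the 60th percentile floor and −0.15 with the brightest probe set, and kept its sign under each alternative. The count of members at least 1.5-fold higher (1) was 0 at the 60th percentile floor, where Cox4i2 was not measured. It was 8 at a log2 ratio of 0.322 and 0 at 2-fold. The count of members at least 1.5-fold lower (1) was 2 with chromosome medians subtracted, Cox6a2 and Atp5md, 9 at a log2 ratio of −0.322 and 0 at 2-fold. Of the 34 measured members picked by the naming rules above, 26 kept their sign under every alternative in which they were measured. Members named only after their values were seen are not in this count. Reading the brightest probe set turned the sign of 11 of 71 members, and subtracting chromosome medians that of 12. Signals near the floor limit what can be read from Cox4i2.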
